A study of Mus musculus with 10 samples.

Results

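The small heat shock protein genes *Cryab*, *Hspb1*, *Hspb2*, *Hspb3*, *Hspb6*, *Hspb7* and *Hspb8*, together with *Bag3*, which encodes the cochaperone of HSPB8, were followed in regenerating tibialis anterior (TA) muscle. These 8 genes were taken by symbol from the 25700 genes counted, and all 8 were found and passed the filter on low counts. RNA came from 5 Pax7Cre and 5 miR-501KO male C57BL/6 mice aged 12 weeks, 6 days after cardiotoxin (CTX), a snake venom toxin that destroys muscle fibers and starts regeneration, was injected into the muscle. The labels list the first group as wild type and the second as miR-501 -/-, while the series design gives the second as Pax7CremiR-501fl/Y, so both groups carry Pax7Cre. The Cre is non-inducible and is driven by the paired box 7 gene of myogenic progenitors, and the methods place the deletion in the myogenic lineage. Libraries were made from whole muscle, so fewer cells of a type and less RNA per cell cannot be told apart in any value given here.

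Small heat shock proteins are chaperones that work without ATP: they assemble into oligomers, hold unfolding proteins in solution and pass them on to the HSP70 machinery. Skeletal muscle is rich in them. CRYAB (αB-crystallin), HSPB1 (HSP27), HSPB6 (HSP20) and HSPB7 (cvHSP) bind to desmin filaments, actin, filamin C or titin at the Z-disc, HSPB2 and HSPB3 form a complex of their own, and HSPB8 and BAG3 deliver damaged filamin to the autophagosome with HSC70 and the ubiquitin ligase CHIP, a route called chaperone-assisted selective autophagy. Mutations in *CRYAB*, *HSPB8* and *BAG3* cause myofibrillar or distal myopathy.

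*Cryab* (ENSMUSG00000032060) lies on the plus strand of the mouse genome GRCm38 at chr9:50751325-50756636, head to head with *Hspb2* (ENSMUSG00000038086, minus strand, chr9:50751078-50752354). The annotated exons of this pair share 252 bases, which are 17.0% of the *Cryab* exon length and 30.2% of that of *Hspb2*. The library kit keeps the strand, but the strand setting of the counting is not given in the sources used here, so reads from the shared bases could have been split or dropped. *Hspb1* (ENSMUSG00000004951) is at chr5:135887919-135889563 on the plus strand and *Hspb8* (ENSMUSG00000041548) at chr5:116408491-116422864 on the minus strand. *Hspb6* (ENSMUSG00000036854, plus strand, chr7:30552178-30555443) overlaps exons of *Proser3* by 122 bases and of *Lin37* by 3 bases, both on the other strand. *Bag3* (ENSMUSG00000030847) is at chr7:128523616-128546981 and *Hspb7* (ENSMUSG00000006221) at chr4:141420779-141425311, both on the plus strand. *Hspb3* (ENSMUSG00000051456, minus strand, chr13:113662896-113663676) has 1 exon.

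The start regions of 6 of the 8 genes could be read from RefSeq windows of GRCm38.p6 that run from 250 bases before to 50 bases after a start site, 7 windows in all because *Hspb6* has 2, while *Cryab* and *Hspb2* had no window. Heat shock factors bind inverted GAA repeats, so both spacings of that repeat were searched on both strands. GAANNTTC stood in 5 of the 7 windows and in 7.86% of all 32817 windows of that length, whereas TTCNNGAA stood in 0 of 7 against 8.51%. The sequences that hold GAANNTTC are shown 5′ to 3′ along the gene with the match in capitals. They are the 250 bases before the start site for *Hspb1* (chr5:135887669-135887918), the downstream *Hspb6* start (chr7:30553051-30553300) and *Hspb3* (chr13:113663677-113663926), and 30 bases that hold the match just after the start site for *Hspb8* (chr5:116422844-116422873) and *Bag3* (chr7:128523603-128523632).
Hspb1: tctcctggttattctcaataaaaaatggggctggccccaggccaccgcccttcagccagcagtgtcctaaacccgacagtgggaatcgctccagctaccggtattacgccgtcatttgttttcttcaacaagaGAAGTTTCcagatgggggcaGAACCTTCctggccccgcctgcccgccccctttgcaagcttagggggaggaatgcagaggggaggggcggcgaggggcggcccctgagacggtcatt
Hspb6: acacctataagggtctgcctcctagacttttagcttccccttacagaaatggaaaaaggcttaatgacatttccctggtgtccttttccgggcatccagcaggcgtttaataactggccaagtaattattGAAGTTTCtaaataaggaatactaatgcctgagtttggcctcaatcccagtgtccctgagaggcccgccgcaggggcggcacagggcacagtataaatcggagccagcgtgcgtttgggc
Hspb3: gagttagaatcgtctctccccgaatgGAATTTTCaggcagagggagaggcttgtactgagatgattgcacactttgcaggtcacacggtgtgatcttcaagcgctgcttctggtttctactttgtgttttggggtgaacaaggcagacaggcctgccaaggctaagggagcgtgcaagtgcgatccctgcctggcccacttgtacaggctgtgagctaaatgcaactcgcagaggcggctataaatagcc
Hspb8: agaagccaggaGAAGTTTCtaggctcgcga
Bag3: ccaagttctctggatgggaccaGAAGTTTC

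The same 8 letters, GAAGTTTC, occurred in *Hspb1*, *Hspb6*, *Hspb8* and *Bag3*, beginning 117 bases before the start site in *Hspb1*, 120 bases before it in *Hspb6*, at base 3 after it in *Hspb8* and at base 43 in *Bag3*. *Hspb1* held a further match, GAACCTTC, which began 97 bases before the start, and *Hspb3* held GAATTTTC, which began 224 bases before it. The upstream *Hspb6* window and the *Hspb7* window held neither spacing. A TATAAA box was found in the windows of *Hspb3* and *Hspb6* and in 13.6% of all windows, and in *Hspb3* it overlapped a match to the MEF2 motif, the binding site of the myocyte enhancer factors, which 3.19% of all windows held. The serum response CArG box (1.63% of all windows) and the estrogen-related receptor motif AAGGTCA (4.72%) were not present in these windows. A match to letters is no evidence of binding.

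The deleted RNA is miR-501, whose mature 3p strand comes from chrX:7241270-7241291 (minus strand, GRCm38.p6) and is shown with its seed, bases 2 to 8, in capitals. A 7-base complement of the seed, GGTGCAT, was present in an annotated 3′ untranslated region of 2 of the 8 genes, *Hspb2* (chr9:50751165-50751171) and *Hspb7* (chr4:141424629-141424635), and of 8.24% of the 14072 tested genes with such an annotation. Each site is shown with the bases around it.
miR-501-3p: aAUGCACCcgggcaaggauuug
Hspb2 site: atggcatcGGTGCATggtccac
Hspb7 site: cagctgctGGTGCATgaggcca

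Each mouse had between 18609222 and 24753258 counted reads, of which 0.178 to 0.335% fell on the 8 genes, so that the lowest count behind any value of theirs was 684, for *Hspb3*. The libraries had the markers of regenerating muscle: all 10 markers of regenerating fibers, such as *Actc1* and *Myog*, and all 20 markers of mature fibers, such as *Ckm*, had reads in every mouse. One library stood apart. Pax7Cre mouse 2 lay at 43.9 on the first principal component, which held 33.0% of the variance of log2 CPM, whereas the other 9 mice lay between −27.5 and 16.9. The summed level of the 20 mature fiber markers in this mouse was 55503 CPM (counts scaled by library size with the TMM method), the highest of all, while its sums of smooth muscle, macrophage and fibro-adipogenic progenitor markers were the lowest of all 10 mice and its sums of endothelial, adipocyte and Schwann cell markers the highest. The main results are therefore also given without it. Mitochondrial genes took 13.98% of the reads in this mouse, 12.7% in miR-501KO mouse 4, 6.59% in Pax7Cre mouse 4 and 9.65 to 10.8% in the other 7.

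*Cryab*, *Hspb6* and *Hspb7*, grouped here by their spread after the values were seen, varied about 3-fold from mouse to mouse. Their difference between the genotypes did not pass the test. *Cryab* was at 217, 551, 178, 195 and 239 CPM in Pax7Cre mice 1 to 5, and at 349, 447, 229, 517 and 282 CPM in miR-501KO mice 1 to 5. Pax7Cre mouse 2 exceeded every other mouse, and 4 of the 5 miR-501KO mice lay above the other 4 Pax7Cre mice. Mean levels were 276 ± 155 CPM in Pax7Cre and 365 ± 118 CPM in miR-501KO (SD, n = 5 each). The log2 fold change of miR-501KO over Pax7Cre was 0.40 ± 0.309 (SE), with a 95% confidence interval from −0.27 to 1.07. Its p was 0.217 in edgeR's quasi-likelihood test (adjusted p = 1.00) and 0.222 in an exact two-sided permutation test. For this and every other gene, the permutation test compared mean log2 CPM between the genotypes, not edgeR's log2 fold change. The means differed by 0.48 for *Cryab*.

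*Hspb6*, whose product is a target of protein kinase A, was at 458, 1239.6, 391, 359 and 771 CPM in Pax7Cre mice 1 to 5 and at 532, 597, 576, 1045 and 829 CPM in miR-501KO mice 1 to 5. *Hspb7*, a heart and skeletal muscle chaperone that binds filamin C, was at 377, 1004, 489, 358 and 653 CPM in Pax7Cre and at 596, 769.8, 512, 1073 and 668 CPM in miR-501KO. In both genes Pax7Cre mouse 2 and miR-501KO mouse 4 were the highest of their genotype, Pax7Cre mouse 4 was the lowest of all, and the genotypes overlapped. These are also the mice with the highest and the lowest share of mitochondrial reads, whose part in the members' values was not tested. The log2 fold change was 0.15 ± 0.324 (SE) for *Hspb6*, with an interval from −0.55 to 0.85. Its mean log2 CPM differed by 0.27 (exact permutation p = 0.492). *Hspb7* had 0.33 ± 0.279, with an interval from −0.27 to 0.93, and a difference in mean log2 CPM of 0.39 (exact permutation p = 0.254). In edgeR both had an adjusted p of 1.00.

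Without Pax7Cre mouse 2, an alternative fit of edgeR with 4 mice against 5, the log2 fold change was 0.81 ± 0.201 (SE) for *Cryab*, 0.62 ± 0.218 for *Hspb7* and 0.53 ± 0.242 for *Hspb6*, each with an adjusted p of 1.00. These 3 genes passed an unadjusted p of 0.05 upward in that fit, beside 1.84% of the 14510 genes tested. Without miR-501KO mouse 4, the other mouse with high mature fiber markers, the values were 0.25 for *Cryab*, 0.15 for *Hspb7* and −0.021 for *Hspb6*. The size of the difference in these 3 genes changed with either mouse, and in no setting did an adjusted p pass 0.05. The summed level of the 20 mature fiber markers was between 20994 and 55503 CPM in Pax7Cre and between 31005 and 42599 CPM in miR-501KO, 15 of the 20 had a log2 fold change above 0, none was at 0 reads in a mouse, and their part in these differences was not tested beyond the fit with a marker score given further on.

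**Figure D1:**
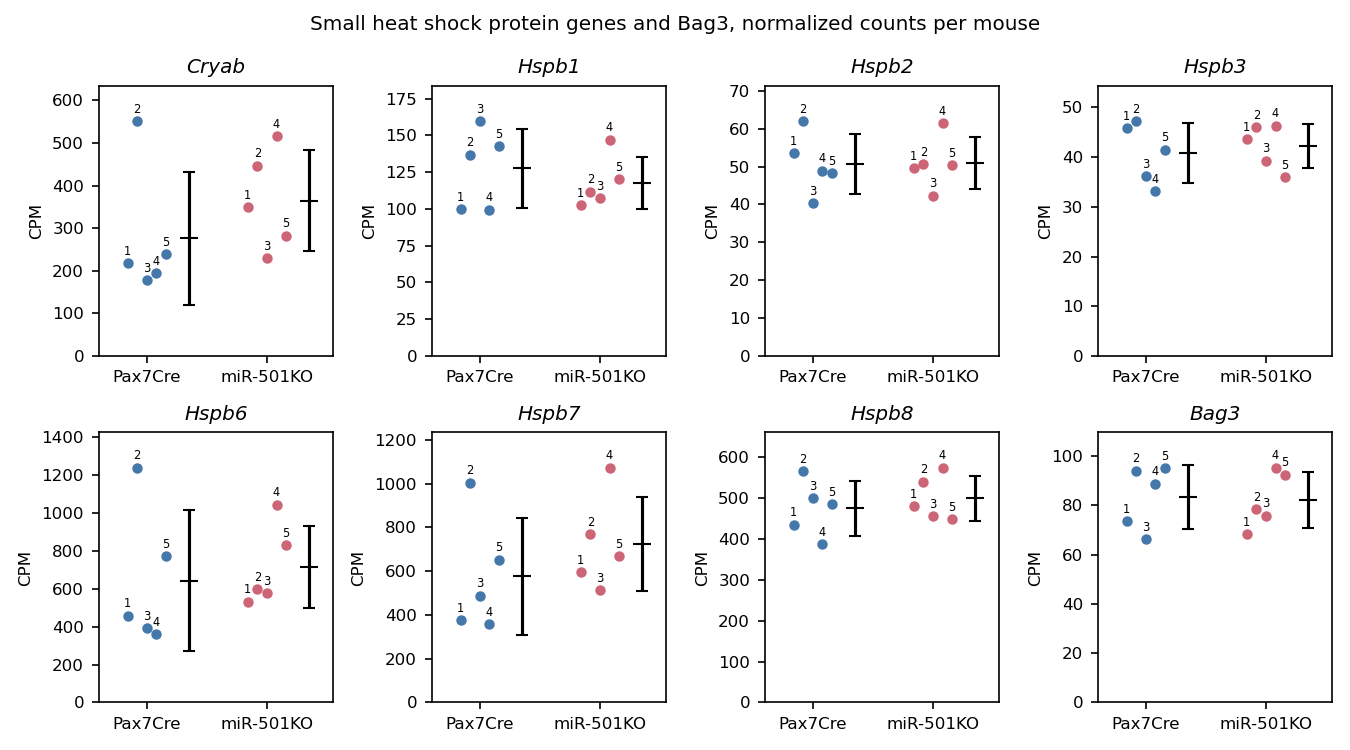
Normalized counts (CPM, y axis) of the 8 genes in each mouse, numbered, by genotype; the horizontal bar and whiskers beside the points are the mean and SD of 5 mice. *Cryab*, *Hspb6* and *Hspb7* spread about 3-fold with Pax7Cre mouse 2 at the top of its genotype, and no gene separates the genotypes.

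*Hspb8* and *Bag3*, which encode the client-binding pair of chaperone-assisted selective autophagy, varied less from mouse to mouse. *Hspb8* was at 435, 566, 501, 388 and 486 CPM in Pax7Cre mice 1 to 5 and at 481, 541, 456, 575 and 449 CPM in miR-501KO mice 1 to 5. *Bag3* was at 73.5, 94.1, 66.2, 88.7 and 95.2 CPM in Pax7Cre and at 68.4, 78.5, 75.7, 95.3 and 92.5 CPM in miR-501KO. The genotypes overlapped in both genes, and Pax7Cre mouse 2 was the highest of its genotype for *Hspb8* but not for *Bag3*. The log2 fold change was 0.075 ± 0.118 (SE) for *Hspb8* (exact permutation p = 0.516), with an interval from −0.18 to 0.33. For *Bag3* it was −0.026 ± 0.121 (exact permutation p = 0.921), with an interval from −0.29 to 0.24. Both adjusted p-values were 1.00 in edgeR.

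*Hspb2* and *Hspb3* encode the subunits of a muscle complex that forms as the myogenic program proceeds. *Hspb2* was at 53.6, 62.0, 40.4, 48.9 and 48.3 CPM in Pax7Cre mice 1 to 5 and at 49.7, 50.6, 42.3, 61.6 and 50.3 CPM in miR-501KO mice 1 to 5. *Hspb3* was at 45.8, 47.2, 36.1, 33.1 and 41.5 CPM in Pax7Cre and at 43.6, 46.0, 39.3, 46.4 and 36.0 CPM in miR-501KO. For both genes all 5 miR-501KO mice lay within the range of Pax7Cre. The log2 fold changes were 0.0068 ± 0.118 (SE) for *Hspb2* (interval −0.25 to 0.26, exact permutation p = 0.897) and 0.051 ± 0.109 for *Hspb3* (interval −0.18 to 0.29, exact permutation p = 0.603), with adjusted p-values of 1.00 in edgeR. *Hspb2* and *Hspb7*, the genes with a site for the miR-501-3p seed, had intervals that include 0, as did the genes with no site.

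*Hspb1*, the stress-induced chaperone of actin filaments that is also made outside muscle fibers, was at 99.7, 137, 159.7, 99.6 and 143 CPM in Pax7Cre mice 1 to 5. In miR-501KO mice 1 to 5 it was at 103, 112, 108, 147 and 120.4 CPM. Its highest mouse was Pax7Cre mouse 3, the mouse with the lowest *Cryab* level, and all 5 miR-501KO mice lay within the range of Pax7Cre. The log2 fold change of −0.12 ± 0.144 (SE), with an interval from −0.43 to 0.20, had p = 0.438 in edgeR (adjusted p = 1.00) and p = 0.548 in the exact permutation test.

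Across the 8 genes, 6 had a log2 fold change above 0, against 47.9% of all 14410 genes tested, and the median was 0.063 against −0.0042 over all genes. Both values depended on single mice. Without Pax7Cre mouse 2, 7 of 8 were above 0 with a median of 0.12, beside 48.8% of all genes. Without Pax7Cre mouse 4, 4 of 8 were above 0 with a median of −0.00039 (47.7% of all genes), and without miR-501KO mouse 4, 4 of 8 with a median of −0.0017 (47.3%). The median was 0.017 without Pax7Cre mouse 3, 0.032 without miR-501KO mouse 2 and 0.100 without miR-501KO mouse 5, and with the mature fiber score described further on as a covariate it was 0.024. No member passed an adjusted p of 0.05 in edgeR, nor did any gene of the whole comparison (0.0%). At an unadjusted p under 0.05, 0 of 8 were higher, against 0.382% of all genes, and 0 of 8 were lower, against 0.666%. DESeq2's Wald test also called 0 genes after adjustment, with 52 higher and 98 lower at an unadjusted p under 0.05, against 55 and 96 in edgeR. The genotypes overlapped in all 8 genes; among all genes, every miR-501KO mouse lay above every Pax7Cre mouse for 0.0625% and below for 0.0763%.

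**Figure D2:**
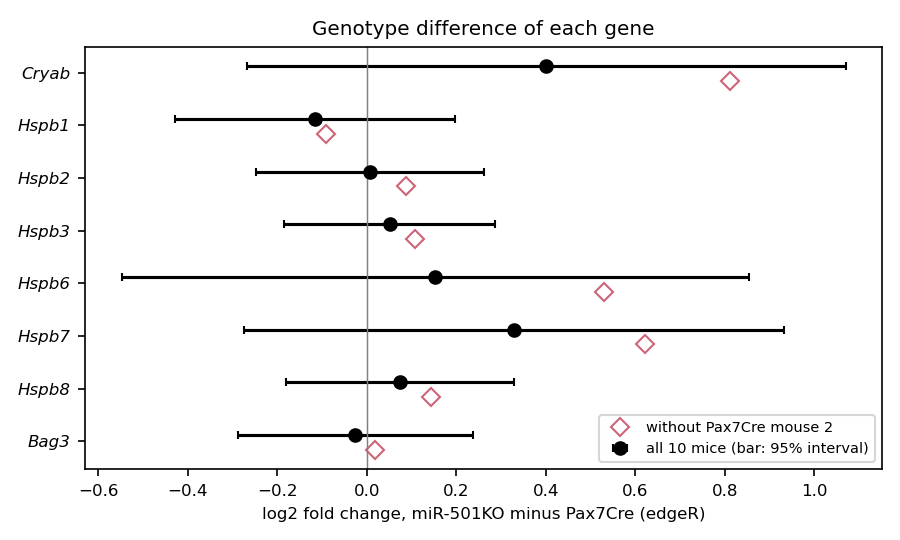
Log2 fold change of each gene, miR-501KO minus Pax7Cre, from edgeR (x axis): black points with 95% confidence intervals use all 10 mice, and open diamonds leave out Pax7Cre mouse 2. All 8 intervals include 0; *Cryab* moved from 0.40 to 0.81 and *Hspb6* from 0.15 to 0.53 without that mouse, whereas *Hspb1*, *Hspb2*, *Hspb3*, *Hspb8* and *Bag3* moved by less.

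Levels were compared between the genes as CPM per kilobase of annotated exon, averaged over the 10 mice. *Hspb6* was first with 296 CPM per kilobase, followed by *Hspb8* with 250.1, *Hspb7* with 235 and *Cryab* with 217. These 4 were not separated: *Hspb6* exceeded *Hspb8* in 5 of 10 mice, *Hspb8* exceeded *Hspb7* in 6 and *Hspb7* exceeded *Cryab* in 5. *Hspb1* had 119 CPM per kilobase and lay below *Cryab* in 9 of 10 mice. *Hspb2* with 60.9, *Hspb3* with 53.1 and *Bag3* with 32.3 CPM per kilobase followed, each above the next in all 10 mice. With the longest coding transcript as the length, *Hspb6* rose to 499 CPM per kilobase and exceeded the next gene, *Cryab* with 287, in all 10 mice, so *Hspb6* was first by either length, but its separation from the next gene depended on the length, and *Cryab* moved from rank 4 to rank 2.

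Summed over the 8 genes, the level was 954, 1869, 999, 848 and 1268 CPM per kilobase in Pax7Cre mice 1 to 5 and 1171, 1376, 1059, 1799 and 1282 CPM per kilobase in miR-501KO mice 1 to 5. Pax7Cre mouse 2 and miR-501KO mouse 4 again stood above the others. The make-up of the sum differed between the mice at its ends. *Hspb6* made up 28.8% of it in Pax7Cre mouse 2 and 18.4% in Pax7Cre mouse 4, the mouse with the lowest sum. *Hspb8* made up 15.5% and 23.4% of the sum in the same mice, and *Hspb1* 7.11% and 11.4%.

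**Figure D3:**
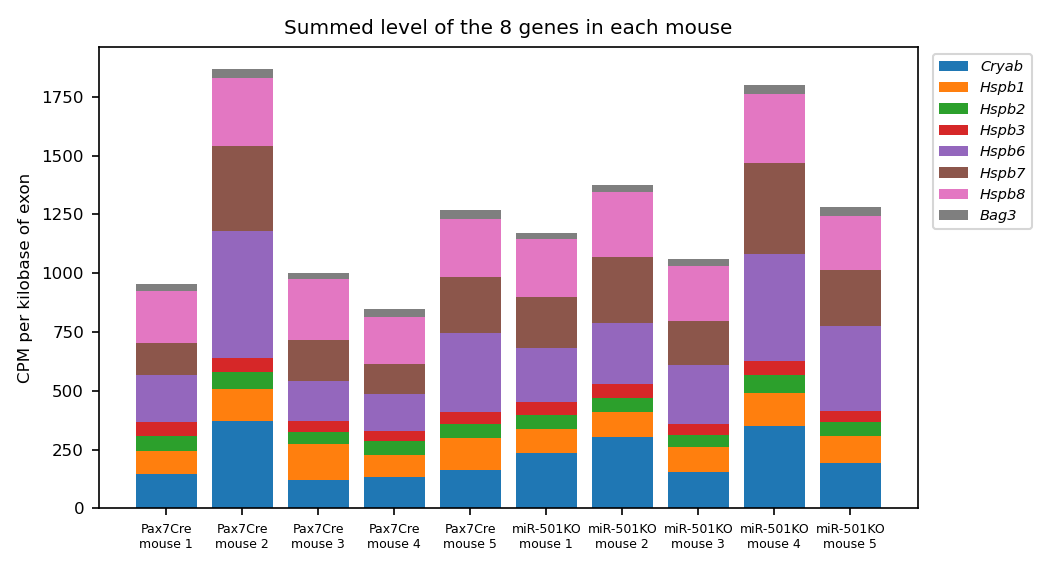
Summed CPM per kilobase of exon of the 8 genes (y axis) in each mouse (x axis), stacked by gene in the order of the key. The sum runs from 848 in Pax7Cre mouse 4 to 1869 in Pax7Cre mouse 2, mostly through the *Cryab*, *Hspb6* and *Hspb7* segments.

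By their spread over the mice, 3 of the 8 genes stood above the other 5, a division made after their values were seen. The highest of the 10 mice exceeded the lowest 3.45 times for *Hspb6*, 3.09 times for *Cryab* and 3.00 times for *Hspb7*, but 1.60 times for *Hspb1*, 1.53 for *Hspb2*, 1.48 for *Hspb8*, 1.44 for *Bag3* and 1.43 for *Hspb3*. The SD of log2 CPM within genotypes was 0.609 for *Hspb6*, 0.573 for *Cryab* and 0.521 for *Hspb7*. Only 2.78%, 3.57% and 4.93% of all genes tested had a larger one, and the median gene had 0.187. *Hspb8* with 0.184 and *Hspb3* with 0.191 were close to that median, and *Hspb1*, *Bag3* and *Hspb2* were between 0.209 and 0.264, above it. A larger SD than that of *Hspb1* was found in 28.3% of all genes, and in 20.0% without Pax7Cre mouse 2. The spread was larger in Pax7Cre than in miR-501KO in 8 of 8 members, as it was in 79.2% of all genes. Without Pax7Cre mouse 2, a setting chosen after the data were seen, it was larger in Pax7Cre in 5 of 8 members and in 69.6% of all genes, and for *Cryab* the order turned, with an SD of log2 CPM of 0.184 in the other 4 Pax7Cre mice and 0.477 in miR-501KO. Over these 9 mice the highest still exceeded the lowest 3.00 times for *Hspb7*, 2.91 times for *Hspb6* and 2.90 times for *Cryab*, and their SDs within genotypes were 0.403, 0.449 and 0.380 beside 0.168 for the median gene.

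Ratios of gene pairs within a library do not depend on how libraries were scaled. The neighbours *Cryab* and *Hspb2* had a ratio of normalized counts, not corrected for length, between 3.97 and 8.88, and the mean log2 ratio was 2.32 ± 0.480 in Pax7Cre and 2.79 ± 0.324 in miR-501KO (SD, n = 5 each). The difference of 0.47 had p = 0.103 in the exact two-sided permutation test and 0.286 after adjustment over the 4 ratios examined. *Cryab* to *Hspb1*, both inducible by heat, differed by 0.58 in log2 ratio (exact permutation p = 0.143, adjusted 0.286). *Hspb8* to *Bag3*, the autophagy pair, differed by 0.10 (exact permutation p = 0.516, adjusted 0.627) and *Hspb2* to *Hspb3*, the pair of one complex, by −0.046 (exact permutation p = 0.627, adjusted 0.627). Without Pax7Cre mouse 2, which had the highest value of its genotype in both ratios, the difference was larger. It was 0.67 for *Cryab* to *Hspb2* (exact permutation p = 0.0238) and 0.83 for *Cryab* to *Hspb1* (exact permutation p = 0.0317). Leaving out any other mouse gave exact permutation p-values of 0.0952 to 0.214 and of 0.103 to 0.294. None of these p-values is adjusted over the ratios, and that mouse was singled out after the data were seen. The *Cryab* to *Hspb2* ratio could be affected by the 252 exon bases that both genes share.

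The genes varied together to different degrees. Over the 10 mice, the log2 CPM of *Cryab* was correlated with that of *Hspb7* at Pearson's r = 0.893 (permutation test, p adjusted over 7 genes = 0.00448) and Spearman's rho = 0.915 (adjusted p = 0.0049). For *Hspb8*, *Hspb2*, *Hspb6* and *Hspb3*, r was between 0.739 and 0.793 (permutation test, adjusted p between 0.015 and 0.0251), with rho between 0.673 and 0.855 (adjusted p between 0.0098 and 0.0546). A higher r with *Cryab* was found for 0.243% of all genes tested for *Hspb7* and 1.99 to 3.73% for these 4. That share was 22.1% for *Bag3* and 36.2% for *Hspb1*. Without Pax7Cre mouse 2 alone, *Hspb7* passed the adjusted threshold (r = 0.859, exact permutation test, adjusted p = 0.0167). The other 4 did not (adjusted p = 0.0632 each). The exon bases shared with *Cryab* could affect the r of *Hspb2*. *Bag3* had r = 0.403 (permutation test, adjusted p = 0.282) with rho = 0.564 (adjusted p = 0.114), and *Hspb1* had r = 0.187 (adjusted p = 0.597) with rho = 0.236 (adjusted p = 0.516). Single mice moved these 2 values: leaving out a mouse gave *Hspb1* an r between 0.0028 (without miR-501KO mouse 4) and 0.564 (without Pax7Cre mouse 3) and *Bag3* between 0.228 (without Pax7Cre mouse 3) and 0.525 (without miR-501KO mouse 1), with no call at any step. When Pax7Cre mouse 2 and miR-501KO mouse 4, the mice farthest from the median of *Cryab*, were left out, r was 0.758 for *Hspb7* (unadjusted exact permutation p = 0.0295, n = 8). In the same 8 mice it was between 0.473 and 0.609 for *Hspb8*, *Hspb2*, *Hspb6* and *Hspb3* (unadjusted exact permutation p between 0.111 and 0.223), which did not pass the test over fewer mice and a narrower range of *Cryab*. With the genotype means removed, r was 0.872 for *Hspb7* and between 0.748 and 0.852 for those 4.

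The mature fiber score of a mouse averaged the log2 CPM of 20 non-sarcomeric markers, each taken around its own mean, and was −0.12, 0.85, −0.38, −0.74 and −0.0066 in Pax7Cre mice 1 to 5. It was −0.10, −0.076, −0.0089, 0.48 and 0.097 in miR-501KO mice 1 to 5, so Pax7Cre held both extremes. *Hspb6* followed this score most closely, with r = 0.940 (permutation test, p adjusted over 8 genes = 0.00016) and rho = 0.988 (adjusted p = 0.00016), and 1.16% of all genes tested had a higher r. *Hspb7* had r = 0.852 and *Cryab* r = 0.801 (permutation test, adjusted p = 0.00597 each), with rho of 0.879 and 0.806 (adjusted p of 0.00664 and 0.0202). A higher r was found for 5.39% of all genes tested in the case of *Hspb7* and 8.14% in that of *Cryab*, so a relation of this kind was not rare in these libraries. Without Pax7Cre mice 2 and 4, the mice farthest from the median score, r was 0.920 for *Hspb6* (exact permutation p = 9.9e-05, n = 8), 0.763 for *Hspb7* (exact permutation p = 0.0376) and 0.705 for *Cryab* (exact permutation p = 0.0402), all 3 unadjusted. Without Pax7Cre mouse 2 alone, *Hspb6* (r = 0.915, exact permutation test, adjusted p = 0.000331) and *Hspb7* (r = 0.826, adjusted p = 0.0328) passed the adjusted threshold and *Cryab* did not (r = 0.709, adjusted p = 0.0702).

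For the other 5 genes the relation with the score depended on the mice included. r was 0.758 for *Hspb8*, 0.700 for *Hspb2* and 0.697 for *Hspb3* (permutation test, adjusted p between 0.0234 and 0.0311), but their rho of 0.539 to 0.588 had adjusted p-values of 0.129 to 0.130. *Bag3* had r = 0.465 (permutation test, adjusted p = 0.212) with rho = 0.733 (adjusted p = 0.0417), and *Hspb1* had r = 0.413 (permutation test, adjusted p = 0.245) with rho = 0.491 (adjusted p = 0.155). Without Pax7Cre mice 2 and 4 the relation did not pass the test, over fewer mice and a narrower range of the score, for *Hspb8* (r = 0.428, exact permutation p = 0.289) and *Hspb3* (r = 0.380, exact permutation p = 0.383). In the same 8 mice r was 0.773 for *Hspb2* (exact permutation p = 0.0358) and 0.783 for *Bag3* (exact permutation p = 0.00308); these 4 p-values are unadjusted. Without Pax7Cre mouse 2 alone, however, r was 0.542 for *Hspb2* (exact permutation test, adjusted p = 0.159), 0.342 for *Bag3* (adjusted p = 0.389), 0.698 for *Hspb8* (adjusted p = 0.0765) and 0.651 for *Hspb3* (adjusted p = 0.0830), so none of these relations passed the test without that mouse. With the score as a covariate in edgeR, the genotype difference was 0.35 ± 0.177 (SE) for *Cryab*, 0.24 ± 0.146 for *Hspb7* and 0.066 ± 0.125 for *Hspb6*, each with an adjusted p of 1.00. The genes and the markers were counted in the same libraries, and mature fiber content was not measured otherwise in the files used here.

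**Figure D4:**
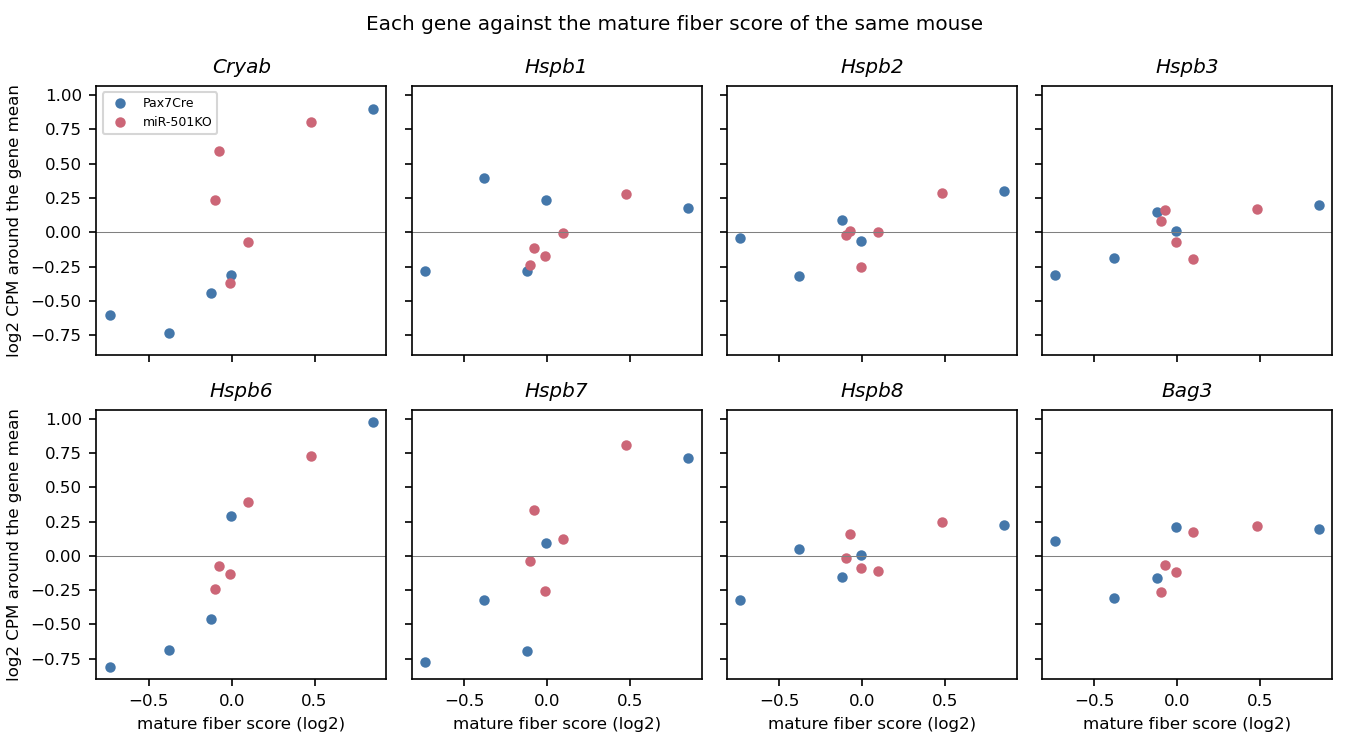
Log2 CPM of each gene around its mean over the 10 mice (y axis) against the mature fiber score of the same mouse (x axis, log2 units); each point is a mouse, coloured by genotype. *Hspb6* follows the score closely (r = 0.940), *Hspb7* (r = 0.852) and *Cryab* (r = 0.801) less closely, and the other 5 genes cover a narrower range of levels, with r from 0.413 for *Hspb1* to 0.758 for *Hspb8*.

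The genes most like each member across the 10 mice were sought among all genes tested. Closest to *Cryab* were *Tuba4a*, an α-tubulin (r = 0.970), and the phosphatase genes *Dusp13* (r = 0.968) and *Dusp26* (r = 0.959). Closest to *Hspb6* were *Jph1*, the junctophilin of the triad (r = 0.976), *Extl1* (r = 0.975) and *Ldb3*, a Z-disc protein (r = 0.975). *Hspb7* was most like *Capn3*, the muscle calpain (r = 0.968), *Egf* (r = 0.964) and *Tfdp2* (r = 0.956). For the other 5 genes the closest were *Atp9a* for *Bag3* (r = 0.968), *Gpx4* for *Hspb3* (r = 0.953), *Siglecg* for *Hspb2* (r = 0.945), *Slc25a47* for *Hspb8* (r = 0.934), followed by *Xirp2*, an actin-binding repeat protein (r = 0.933), and *Hcfc2* for *Hspb1* (r = 0.930). The best match out of 14410 genes is high by selection, and these values are a description over 10 points. For the same pairs r was between 0.917 and 0.969 without Pax7Cre mouse 2.

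Of the other small heat shock protein genes, *Cryaa* had 15 reads in the 10 mice together, *Hspb9* 9 and *Odf1* 3, and none of them passed the filter. The partners of *Hspb8* and *Bag3* in chaperone-assisted selective autophagy did not pass the test: of 8 genes, 3 had a log2 fold change above 0 and 5 below, with a median of −0.013, and 0 had an unadjusted p under 0.05 in edgeR. Among them were *Flnc*, the filamin C client (0.078 ± 0.175 SE), *Map1lc3a*, an LC3 of the autophagosome (0.067 ± 0.160), and *Synpo2*, a Z-disc adaptor of BAG3 (−0.030 ± 0.161). The other 5 BAG cochaperone genes had 1 value above 0 and 4 below, led by *Bag5* (−0.097 ± 0.0692 SE), *Bag2* (−0.072 ± 0.0841) and *Bag4* (−0.058 ± 0.0924). Over all genes tested, 47.9% were above 0, and at an unadjusted p under 0.05 in edgeR 0.382% were higher and 0.666% lower.

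The genes of the heat shock response around the members did not pass the test either. *Hsf4*, *Hsf1* and *Hsf2*, the heat shock factors that drive several small heat shock protein genes, had log2 fold changes of 0.057 ± 0.164 (SE), −0.051 ± 0.0822 and −0.0096 ± 0.0900. Of 14 heat-inducible HSF1 target chaperones 5 were above 0 and 9 below, with a median of −0.048. The inducible HSP70 genes *Hspa1a* and *Hspa1b*, near-identical copies whose reads may be split between them, were at 1.58 ± 0.459 and 2.31 ± 0.381 CPM in Pax7Cre and at 1.83 ± 0.0927 and 2.67 ± 0.514 CPM in miR-501KO (SD, n = 5 each), and *Fkbp4*, an HSP90 cochaperone, had a log2 fold change of −0.11 ± 0.0893. Of 18 other HSP70, HSP40 and HSP90 genes, 6 were above 0 and 12 below (median −0.028), led by *Dnaja1* (−0.13 ± 0.0976), *Hspa5*, the chaperone of the endoplasmic reticulum (−0.12 ± 0.149), and *Hspa12b* (−0.11 ± 0.0893). The lists together held 0 genes with an unadjusted p under 0.05 in edgeR, beside 0.382% higher and 0.666% lower over all genes. With shares that low, a count of 0 in short lists does not show that these genes were unchanged. Of all genes tested, 47.9% had a log2 fold change above 0.

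The proteins that small heat shock proteins guard form the cytoskeleton and the Z-disc. Of 11 such genes 10 had a log2 fold change above 0, beside 47.9% of all genes, with a median of 0.11 and 0 at an unadjusted p under 0.05 in edgeR. Their r with the mature fiber score ran from −0.753 to 0.954, with 0.917 for *Fhl1*, so they are not 11 separate observations. Their sum was highest in Pax7Cre mouse 2 (14603 CPM), and the tally was not repeated with a mouse left out. *Fhl1*, a LIM protein, was at 1435 ± 788 CPM in Pax7Cre and 1687 ± 482 CPM in miR-501KO (SD, n = 5 each), and its log2 fold change was 0.23 ± 0.317 (SE). *Csrp3*, muscle LIM protein, had 0.19 ± 0.325 and *Ttn*, titin, 0.18 ± 0.173. Each of these 3 estimates was close to or below its SE.

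No marker of another cell or fiber type passed an unadjusted p of 0.05 in edgeR, beside 0.382% higher and 0.666% lower over all genes. The part of these markers in the members' values was not tested. Their counts above 0 stand beside 47.9% of all genes. Beside *Hspb1*, *Hspb6* and *Cryab*, which smooth muscle also makes, the 6 smooth muscle markers summed to 695 to 1181 CPM in Pax7Cre and 921 to 1169 CPM in miR-501KO, with 4 of 6 above 0 in log2 fold change and the largest value in *Acta2* (0.22 ± 0.175 SE). Pax7Cre mouse 2, the highest for *Cryab* and *Hspb6*, had the lowest of these sums. The 10 regenerating fiber markers summed to 5406 to 7864 CPM in Pax7Cre and 5376 to 7812 CPM in miR-501KO, with 7 of 10 above 0, led by *Actc1* (0.18 ± 0.174). The 8 markers of slow and oxidative fibers, in which *Cryab* is abundant, had 6 above 0 and sums of 1477 to 1689 CPM against 1439 to 1803 CPM, led by *Myl3* (0.24 ± 0.718) and *Myh2* (0.19 ± 0.517). Over these 8 markers r with the mature fiber score ran from −0.747 to 0.821, so they did not vary together. Their sum is no measure of slow and oxidative fiber content.

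All 6 endothelial markers had a log2 fold change below 0, with a median of −0.069, and sums of 624 to 802 CPM in Pax7Cre and 630.2 to 792 CPM in miR-501KO. The 6 macrophage markers were split 3 to 3 with sums of 3864 to 5381 CPM and 4079 to 4753 CPM, and the 6 fibro-adipogenic progenitor markers 2 above to 4 below with sums of 13759 to 18698 CPM and 14717 to 17780 CPM. The 4 Schwann cell markers were split 2 to 2, with sums of 11.4 to 31.3 CPM and 17.3 to 28.3 CPM. All 4 adipocyte markers were below 0, with sums of 191 to 363 CPM and 223 to 324 CPM. In these lists every marker had reads in every mouse and 0 had an unadjusted p under 0.05 in edgeR, beside 0.382% higher and 0.666% lower over all genes. Of all genes, 47.9% were above 0.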

How the data were processed

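RNA of 10 TA muscles was sequenced as 100 bp single-end reads. The authors deposited raw counts per Ensembl gene and mouse, without normalization. Per the submitters' notes they used STAR, featureCounts, R 3.5.1 and GRCm38.p5; the paper calls the gene annotation ENCODE release 91. Strand setting and treatment of multi-mapping reads are not given in the sources used here. Of the 25700 genes listed, 25587 were in GENCODE M21 (GRCm38), the source of positions and exon lengths. A symbol shared by several IDs stayed with the ID with most reads.

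Genotypes were compared by the quasi-likelihood test of edgeR 4.0.16 (R 4.3.3) after TMM scaling (factors 0.884 to 1.13) of the 14410 genes that filterByExpr kept (minimum count 10, minimum total 15), with Benjamini-Hochberg adjustment over all of them and a threshold of 0.05. Log2 CPM had a prior count of 2. Exact two-sided permutation tests compared mean log2 CPM or mean log2 ratio over the 252 assignments of 5 and 5 mice (smallest p 0.00794). Correlations over 10 mice used 100000 permutations. Mice of a genotype differed beyond counting noise (chi-square per degree of freedom at least 9.51), so no library repeats another. Genotypes and numbers came from the labels, which name no batch and no pairs. The paper calls the controls littermates but does not say which mice shared a litter. The steps were checked on counts simulated from the means, dispersions and library sizes of these data. Of 100 genes changed by a log2 of 1, 95% passed the adjusted threshold, but of 100 changed by 0.4 only 20% did. Of 124 calls 9 were false. A change of 0.4 would thus mostly be missed. Named genes are the 8 members, up to 3 genes of each other list with the largest absolute log2 fold change, some of the 3 genes most like each member, and, outside that rule, genes that overlap a member and 3 listed genes below the filter. The members and lists were chosen with earlier results of these data known. Alternatives were size factors and the Wald test of DESeq2 1.42.0, other filters, a likelihood ratio test, robust empirical Bayes, a replicate block, the mature fiber score as covariate and leaving out each mouse; coding transcript length, correlations with the score, and the spread, median and likeness of the members with a mouse left out were added after seeing the data.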

Additional observations from a re-analysis of the deposited data

Results flagged for a closer look

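Among 26 groups of 5 mice searched for a mouse far from the others of its genotype, 2 were picked out, where chance gives 1.3. *Cryab* in Pax7Cre mouse 2 was at 551 CPM, and the other 4 Pax7Cre mice lay between 178 and 239 CPM, so the gap took up 0.838 of the range (critical value for 5 mice, 0.71). The log2 ratio of *Cryab* to *Hspb2* in the same mouse was 3.15, against 1.99 to 2.30 in the other 4, a gap of 0.730 of the range. The second value shares the *Cryab* count of the first.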

How the results depend on the processing

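The 8 log2 fold changes had no adjusted p below 0.996 in any of the 18 alternative settings. The difference of *Hspb2* became −0.041 with the mature fiber score as covariate. Leaving out each mouse in turn moved it between −0.069 and 0.087, that of *Hspb3* between −0.015 and 0.11, that of *Hspb6* between −0.021 and 0.53 and that of *Bag3* between −0.097 and 0.034, all through 0; *Cryab* stayed between 0.25 and 0.81, *Hspb7* between 0.15 and 0.62, *Hspb8* between 0.0099 and 0.14 and *Hspb1* between −0.21 and −0.021. Members with an unadjusted p under 0.05 numbered 0 to 3, the 3 without Pax7Cre mouse 2. Over all genes, 55 higher and 96 lower at an unadjusted p under 0.05 became 153 and 159 with no filter, where more genes were tested, 331 and 224 with the score, and 36 higher with at least 10 counts in every mouse; leaving out a mouse gave 39 to 267 higher and 59 to 242 lower (267 and 186 without Pax7Cre mouse 2, 228 and 242 without Pax7Cre mouse 4, 59 lower without miR-501KO mouse 1). The cause was not tested. Leaving out a mouse moved the difference in log2 ratio of *Cryab* to *Hspb2* between 0.38 and 0.67, of *Cryab* to *Hspb1* between 0.37 and 0.83, of *Hspb8* to *Bag3* between 0.0054 and 0.20 and of *Hspb2* to *Hspb3* between −0.10 and 0.016. It moved r with *Cryab* between 0.699 and 0.867 for *Hspb2*, 0.685 and 0.883 for *Hspb3*, 0.690 and 0.854 for *Hspb6*, 0.731 and 0.928 for *Hspb8* and 0.859 and 0.921 for *Hspb7*, past the threshold each time for *Hspb7* alone. Equal mouse numbers were not taken as pairs: the labels name none and same-numbered mice correlated negatively for numbers 2 and 4 (from −0.305 to 0.337 over the 5 numbers), although numbers 1, 3 and 5 were best matched to themselves, so whether some shared a source was not settled; with them as a replicate block *Cryab* was 0.48 ± 0.212 (SE, edgeR p = 0.0528, adjusted p = 1.00), *Hspb6* 0.28 ± 0.306 and *Hspb2* 0.011 ± 0.0952, and 87 genes were higher and 102 lower. For r with the mature fiber score, *Hspb6* (0.915 to 0.955) and *Hspb7* (0.793 to 0.912) kept their side of the threshold without each mouse; *Cryab* lost it without Pax7Cre mouse 2 (0.709), *Hspb2*, *Hspb3* and *Hspb8* lost it in 3, 4 and 3 of 10 cases (lowest 0.542, 0.525 and 0.612), and *Hspb1* without Pax7Cre mouse 3 (0.734) and *Bag3* without Pax7Cre mouse 4 (0.738) gained it. With at least 684 counts behind each value, the precision of the members is set by the spread between mice.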
